A study of Mus musculus with 2 samples.

Results

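The 37 genes described here were listed as haematopoietic-restricted genes of the cell membrane, signalling, the actin cytoskeleton and the NADPH oxidase. They were measured in cultured mouse calvarial osteoblasts, where not all of them were dim on the array labelled wild type. They were taken from a fixed list of symbols, chosen with earlier results of these data known. A probe set was used where its annotation names exactly 1 gene and that gene is on the list. All 37 were measured, by 55 probe sets, among 12393 genes on the array. The data are 2 Affymetrix arrays, 1 labelled with the genotype Col1-Dlk1, a transgene that overexpresses Dlk1, and 1 labelled wild type, both of strain C57Bl/6, with no drug treatment given in the labels. Cells came from skulls of pups 4 to 5 days old, were released by trypsin and collagenase digestion and were cultured, and 3 cultures were combined for each genotype. Col1 in the transgene's name stands for type I collagen, whose promoter is active in osteoblasts and other matrix-forming cells. The transgenic cells were sorted for Dlk1-positive cells, per the labels' protocols, which state no sort of the wild-type cells.

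These genes are named for blood cells because in the adult mouse most of them are transcribed in leukocytes and few in cells of bone, cartilage or connective tissue. The surface proteins tune antigen receptor and adhesion signals. The Rac, Vav, Dock, Hem and WASP proteins turn those signals into branched actin for migration and phagocytosis, while phosphatases such as Ptpn6 and Inpp5d restrain them. The NADPH oxidase of phagocytes makes superoxide inside the phagosome, and lysozyme and the pore-forming protein of Mpeg1 act on engulfed microbes.

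Intensities are on a linear scale that the arrays share, with trimmed means of 150.1 on both. A difference is the log2 value of the array labelled Col1-Dlk1 minus that of the array labelled wild type, after a pseudocount of 10.96 was added to each intensity. The pseudocount makes differences of dim genes smaller than they would be without it. A gene passes the level threshold when its higher value reaches 42.8, the median of all values, and is called higher or lower when it also differs by at least 2-fold. Each genotype has a single array, so no value below has an error, a test or a replicate check, and calls describe 2 arrays only. The sort for Dlk1-positive cells is stated for the transgenic cells alone. It falls together with genotype, and the sort and the genotype cannot be told apart here. Dlk1 itself goes against its label, at 26.5 in the library labelled Col1-Dlk1 and 306 in the other. This rests on 1 probe set, and whether it reads the transcript of the transgene was not tested. Every direction below would be reversed if the labels had been swapped. In each pair of values below, the first is from the array labelled Col1-Dlk1 and the second from the array labelled wild type.

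The leukocyte genes were almost all higher on the array labelled Col1-Dlk1. Of the 37 members, 34 were called higher and 0 lower, against 9.39% of all level-passing genes called higher and 7.11% called lower. Because the members were chosen with earlier results of these data known, this contrast is a description and not a test. Cyba differed by less than 2-fold, and Cd37 and Lcp2 stayed below the level threshold on both arrays. All 37 differences were positive, with a median of 3.56 log2 units and a range from 0.52 for Cyba to 7.17 for Lyz2, while the median over level-passing genes was 0.02. In bulk RNA such as this, more cells of a type and more RNA per cell cannot be told apart. At higher folds, 33 members were at least 4-fold higher (background 3.53%), 25 at least 8-fold (background 1.50%) and 12 at least 16-fold (background 0.677%).

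**Figure D1:**
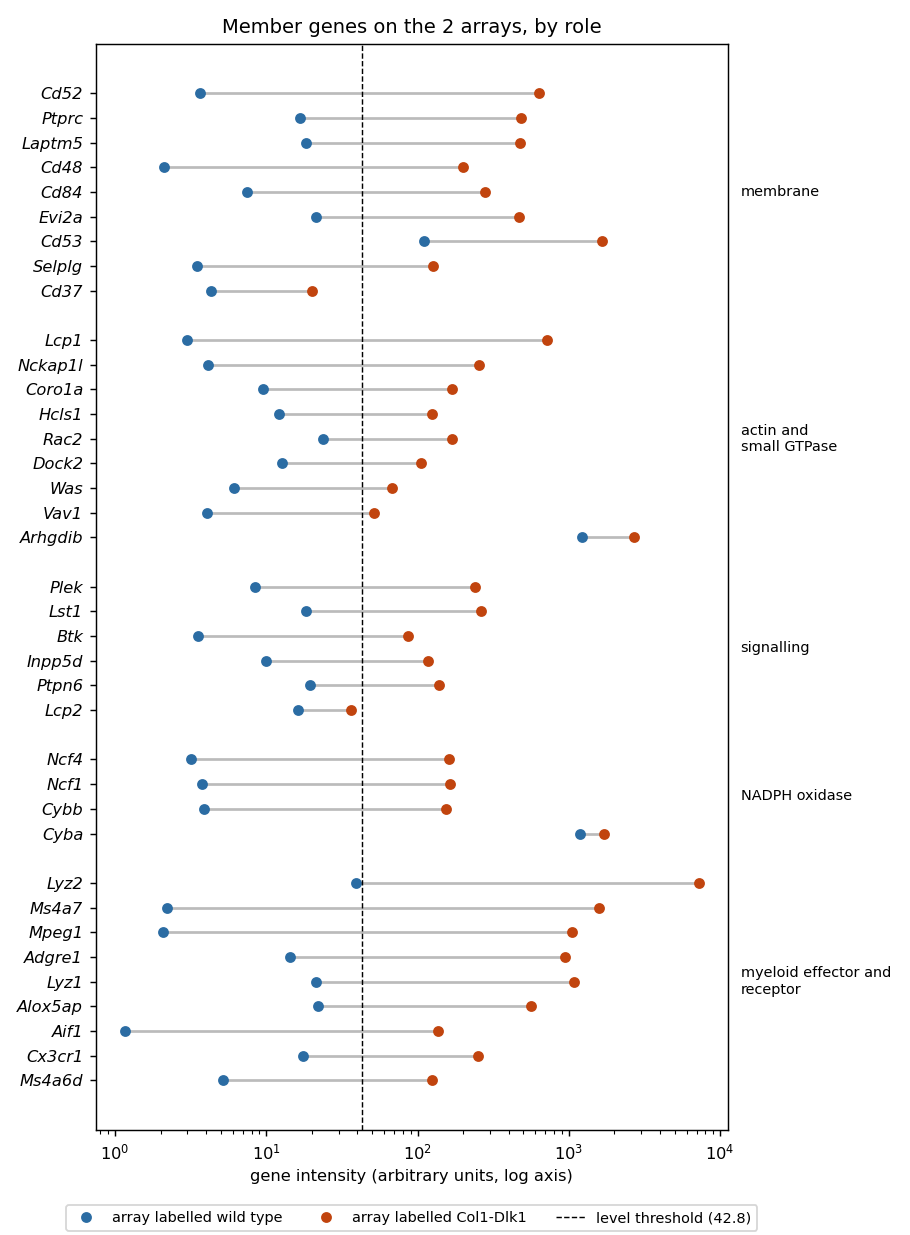
Gene intensity (arbitrary units, log axis) of the 37 members on the array labelled wild type (blue) and the array labelled Col1-Dlk1 (orange), grouped by role, with the level threshold of 42.8 as a dashed line. The wild-type values of 34 members lie left of the line, and those of Cd53, Arhgdib and Cyba lie right of it.

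On the array labelled wild type the members were mostly dim. Their values there ran from 1.16 for Aif1 to 1221 for Arhgdib with a median of 9.47, and 34 of 37 were below the level threshold. Only Cd53, Arhgdib and Cyba reached it. On the array labelled Col1-Dlk1 the values ran from 20.2 for Cd37 to 7267 for Lyz2 with a median of 240, and 35 of 37 reached the threshold. Because 20 of the wild-type values lie under the pseudocount itself, the size of a fold depends on how dim values are treated. With no pseudocount and with every value under the level threshold raised to it, 32 members were still at least 2-fold higher, with a median of 2.21. The background was then 523 of all 12393 genes (4.22%), since every raised value reaches the threshold. Under the main rule it was 638 of 6795 level-passing genes. The alternative with raised values was added after the data were seen. Vav1 (0.27) and Was (0.66) were the called members that lost their call under it.

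**Figure D2:**
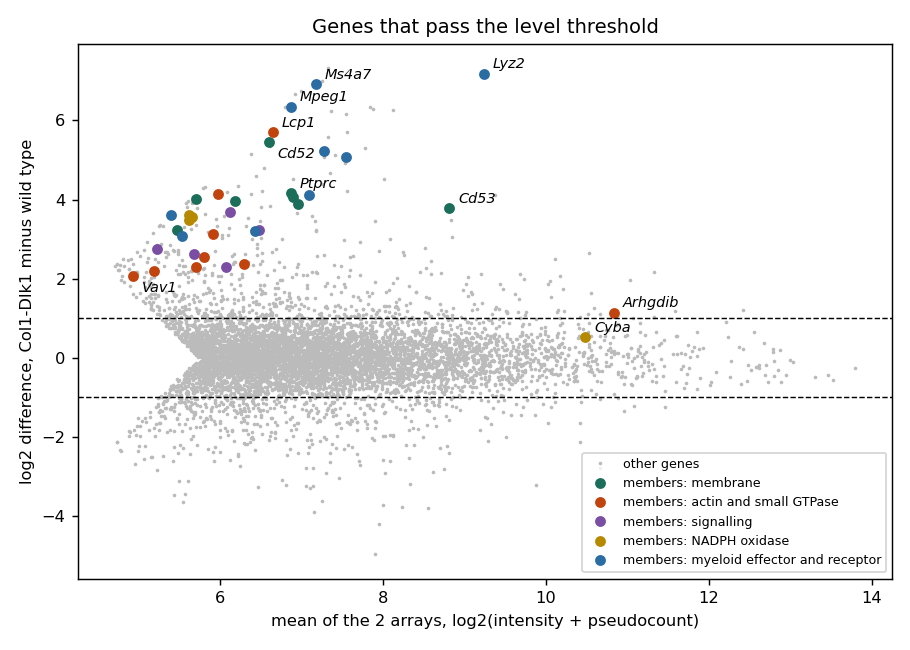
Difference (log2, Col1-Dlk1 minus wild type) against the mean of the 2 arrays for the 6795 genes that pass the level threshold, with the 35 level-passing members coloured by role and dashed lines at 2-fold. The members lie above the upper line except Cyba at 0.52, and Arhgdib at 1.14 lies just above it.

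Among the membrane proteins, 8 of 9 were called higher (background 9.39%) and the median difference was 3.97. Ptprc, the CD45 tyrosine phosphatase that opens antigen receptor signalling by acting on Src-family kinases, read 485 against 16.7, a difference of 4.16. Cd52, a short GPI-anchored glycoprotein of leukocytes, read 633 against 3.66 and had the largest difference of this group (5.46). Cd53, a tetraspanin that organises receptors in the leukocyte membrane, was the only membrane member above the level threshold on both arrays, with 1656 against 111 (3.78). For this gene the plain ratio of 15.0 and the fold with the pseudocount of 13.7 are close, since neither value is dim.

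Cd48 and Cd84 belong to the SLAM family of adhesion and signalling receptors. Cd48 read 200.4 against 2.12 (4.01), and Cd84 read 278 against 7.42 (3.97). Both wild-type values lie under the pseudocount, and with a pseudocount of 1 the differences were 6.01 and 5.05. Laptm5, a lysosomal membrane protein that limits the surface level of immune receptors, differed by 4.05 over 3 probe sets. Evi2a, a small membrane protein gene that lies within an intron of Nf1, read 468 against 21.4 (3.89). Selplg, which encodes the P-selectin ligand used in leukocyte rolling, read 126 against 3.51 (3.24). The tetraspanin gene Cd37 had a mean value of 20.2 against 4.31 and could not be called, and its probe sets did not read alike.

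All 9 actin and small GTPase members were called higher (background 9.39%), with a median difference of 2.37, which is lower than in the membrane group. Lcp1, the leukocyte plastin that bundles actin filaments, stood apart with 715 against 3.00 and a difference of 5.70. Nckap1l, which encodes the haematopoietic Hem subunit of the WAVE complex, read 253 against 4.11 (4.13), and Coro1a, a coronin that binds actin and the Arp2/3 complex, read 169 against 9.47 (3.13). The differences of the other 6 ran from 1.14 to 2.55. Hcls1, a leukocyte relative of cortactin, was the highest of these with 125 against 12.2 (2.55).

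Rac2, the haematopoietic Rac GTPase, read 168 against 23.6 (2.37). Its exchange factors were also higher, with Dock2 at 106 against 12.7 (2.30) and Vav1 at 51.7 against 4.02 (2.06). Was, the Wiskott-Aldrich syndrome protein that activates the Arp2/3 complex, read 67.4 against 6.10 (2.20). Vav1 and Was were the called members nearest to the level threshold on the array labelled Col1-Dlk1. Arhgdib, an inhibitor of small GTPases of the cytoskeleton, was different in kind, being well above the threshold on both arrays with 2708 against 1221 (1.14), and it was the only called member that differed by less than 4-fold.

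Promoter windows of RefSeq (build GRCm38.p6, 250 bases before to 50 after a transcript start) were at hand for 27 of the 37 members, in 33 windows. The letters GAGGAAG on either strand, a core found in sites of the myeloid factor PU.1, were in 7 of these windows (21.2%) and in 13.6% of all 32851 windows. The Runx core TGTGGT was in 8 (24.2%, all windows 16.8%), and the AP-1 letters TGANTCA were in 4 (12.1%, all windows 7.81%). In 5 member windows a GAGGAAG match began within the last 40 bases before the start (15.2%, all windows 2.28%), a Runx match did so in 2 (6.06%, all windows 2.12%) and an AP-1 match in 0 (all windows 1.05%). That 40-base stretch was chosen after the positions were seen, and a match of letters shows no binding. Spi1, which encodes PU.1, read 178 against 30.9 (2.17). The upstream 250 bases are shown for the 4 called members among the 5, from chr4:130913066-130913315 (strand +), chr1:87620062-87620311 (strand +), chr11:34783906-34784155 (strand -) and chr17:57278850-57279099 (strand +), each 5′ to 3′ on the gene's strand and ending at the base before the start, with the match in capitals (CTTCCTC is the same motif read on the other strand).
Laptm5: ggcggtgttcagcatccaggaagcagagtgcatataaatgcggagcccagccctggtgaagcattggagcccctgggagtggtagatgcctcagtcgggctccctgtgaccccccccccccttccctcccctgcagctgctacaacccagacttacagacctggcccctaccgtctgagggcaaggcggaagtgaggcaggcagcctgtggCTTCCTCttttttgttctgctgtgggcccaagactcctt
Inpp5d: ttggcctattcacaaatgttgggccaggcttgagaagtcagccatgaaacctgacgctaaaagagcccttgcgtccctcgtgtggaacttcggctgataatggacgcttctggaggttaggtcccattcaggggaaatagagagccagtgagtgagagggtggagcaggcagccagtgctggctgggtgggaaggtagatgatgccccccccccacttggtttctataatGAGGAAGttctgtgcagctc
Dock2: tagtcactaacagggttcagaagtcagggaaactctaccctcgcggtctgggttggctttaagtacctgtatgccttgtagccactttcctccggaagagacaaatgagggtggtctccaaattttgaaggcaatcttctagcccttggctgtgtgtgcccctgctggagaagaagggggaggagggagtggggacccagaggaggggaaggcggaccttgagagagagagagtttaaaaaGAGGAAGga
Vav1: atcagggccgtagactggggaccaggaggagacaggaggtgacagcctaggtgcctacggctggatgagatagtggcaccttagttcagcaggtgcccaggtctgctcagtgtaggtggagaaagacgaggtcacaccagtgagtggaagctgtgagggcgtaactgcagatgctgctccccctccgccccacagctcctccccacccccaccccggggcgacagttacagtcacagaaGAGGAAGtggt
The matches begin 39 bases before the start in Laptm5, 20 in Inpp5d, 9 in Dock2 and 11 in Vav1. These 4 genes span membrane, signalling and actin roles, and their differences ran from 2.06 to 4.05.

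Of the 6 signalling members, 5 were called higher (background 9.39%) and the group median was 2.68. Plek, the pleckstrin gene and a target of protein kinase C, read 240 against 8.41 (3.69), the largest difference of the group. Lst1, a leukocyte-specific transcript of the class III region of the MHC, read 262 against 18.4 (3.22). Btk, the Tec-family kinase of B cells and myeloid cells, read 86.0 against 3.51 (2.74). The inhibitory phosphatases were higher together with the activators. Inpp5d (SHIP), the lipid phosphatase that removes the product of PI3-kinase, differed by 2.62, and Ptpn6, the tyrosine phosphatase of inhibitory receptors, by 2.30. The adaptor gene Lcp2 had a mean of 36.3 against 16.1 (0.80) and stayed below the threshold.

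The NADPH oxidase members split by subunit. Cybb, the catalytic membrane subunit, read 154 against 3.85, a difference of 3.48. Ncf1 and Ncf4, the cytosolic organiser and its partner, read 163 against 3.78 (3.56) and 162 against 3.20 (3.61). These 3 differences lie within 0.13 log2 units of each other at the main pseudocount, under which all 3 wild-type values lie. With a pseudocount of 1 they were 5.00 for Cybb, 5.18 for Ncf1 and 5.28 for Ncf4. Cyba, the small membrane partner that other Nox enzymes also use, read 1705 against 1189 (0.52), well above the threshold on both arrays and within 2-fold. Of the 10 other oxidase and Nox genes in a list of the pathway, 4 were measured and 0 were called, with Rac1 at 481 against 449 (0.10) and Rap1a at 235 against 146 (0.65). Nox4, the isoform common in stromal cells, was below the threshold on both arrays.

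Differences were largest among the myeloid effectors and receptors, where 9 of 9 were called higher (background 9.39%) and the median was 5.08. That median is the value of Lyz1, whose call rests on 2 probe sets with the suffix _x_at, described below. Without them Lyz1 was below the level threshold with a difference of 0.31, so the count and the median of this group depend on them. Lyz2, the lysozyme of macrophages and granulocytes, read 7267 against 39.4 (7.17). Ms4a7, a tetraspan membrane protein of macrophages, read 1580 against 2.20 (6.92). Mpeg1, a pore-forming protein of phagocytes, read 1046 against 2.06 (6.34). Even against the level threshold in place of the dim wild-type values, these genes were 170-fold, 36.9-fold and 24.5-fold higher in that order. Adgre1, the adhesion receptor known as a marker of mouse macrophages, read 943 against 14.3 (5.24).

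The other genes of this group had smaller differences. Alox5ap, the membrane protein that presents arachidonic acid to 5-lipoxygenase, read 563 against 21.9 (4.12). Aif1, an actin-binding protein of macrophages and microglia, had the lowest wild-type value of all members and read 136 against 1.16 (3.60). Cx3cr1, the receptor of fractalkine, differed by 3.21 over 2 probe sets. Its ligand gene Cx3cl1 was below the threshold on both arrays, at 16.2 against 29.6. Of 10 other genes listed for leukotriene and related lipid pathways, 8 were measured, with 2 higher and 1 lower. Alox5, the gene of 5-lipoxygenase, was not measured. Over the array 638 of 12393 measured genes were higher and 483 lower. Those called in the list were the leukotriene synthase gene Ltc4s (91.0 against 4.88, 2.69), the prostaglandin synthase gene Ptges (1.15) and the phospholipase gene Pla2g4a (-1.19).

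Probe sets of 1 gene repeat the measurement on the same RNA, and 13 members had several. In 11 of the 13 every probe set differed in the same direction, and in Cd37 and Lcp2 they did not. Of all 55 member probe sets, 49 were called higher (background over probe sets 9.45%), 1 was within 2-fold and 5 stayed under the level threshold on both. Those 5 belong to Lyz1, Coro1a, Ms4a6d, Cd37 and Lcp2, in each of which another probe set passed the threshold. Cd37 read 54.2 against 2.22 in one and 3.93 against 6.74 in the other. Lcp2 read 75.6 against 11.3 and 14.8 against 22.1. Their gene values are averages of a brighter and a dim probe set, and with the brightest probe set alone both would be called (2.30 and 1.96).

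**Figure D3:**
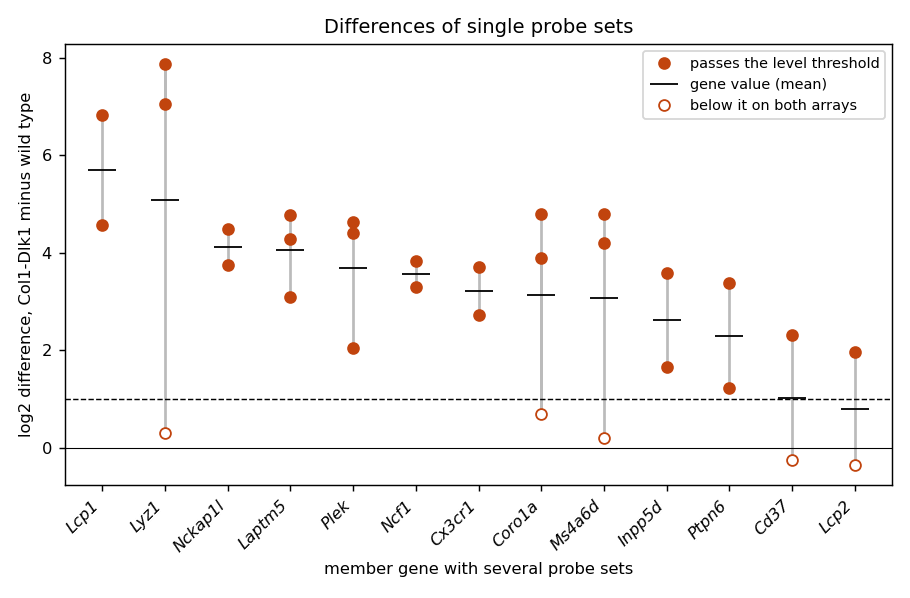
Difference (log2, Col1-Dlk1 minus wild type) of each probe set for the 13 members with several, with open circles for probe sets below the level threshold on both arrays and a black bar for the gene value. The dim probe set lies at 0.31 in Lyz1, 0.20 in Ms4a6d and 0.70 in Coro1a, and below 0 in Cd37 and Lcp2.

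Lyz1 had the widest spread between probe sets. Its 2 probe sets with the suffix _x_at read 10512 against 68.4 and 5356 against 11.9, while the third read 12.1 against 7.62. That suffix marks Affymetrix probe sets with probes that also match other transcripts. Lyz1 and Lyz2 are related neighbours on chromosome 10, and their sequence identity was not computed. Whether the bright Lyz1 probe sets read Lyz2 was not tested. Without probe sets ending in _s_at or _x_at, Lyz1 was below the threshold with a difference of 0.31, and Laptm5, Dock2 and Aif1 had no probe set left. Of the 34 members still measured, 30 were called higher then.

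Relatives of the members from the same protein families were mostly alike on the arrays. Of 30 measured relatives, 1 was called higher (background 9.39%) and 0 lower (background 7.11%), 20 lay within 2-fold, 9 were below the level threshold, and the median was 0.13. Pls3, the plastin of non-blood cells, read 704 against 594 (0.24), beside 5.70 for Lcp1. Nckap1, the broadly expressed WAVE subunit, read 1355 against 1661 (-0.29), beside 4.13 for Nckap1l. Rac1 differed by 0.10 beside 2.37 for Rac2, Cttn (cortactin) by 0.07 beside 2.55 for Hcls1, and Dock1 by -0.09 beside 2.30 for Dock2. Laptm4a read 4088 against 3481 (0.23), beside 4.05 for Laptm5.

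The same held for phosphatases and adhesion receptors. Ptpn11, the broadly expressed relative of Ptpn6, differed by -0.74, Inppl1, that of Inpp5d, by -0.17, Wasl, that of Was, by -0.58, and Adgre5 by 0.41 beside 5.24 for Adgre1. The exception was Tec, a kinase of the Btk family found in blood cells and other tissues, with 162 against 18.4 (2.56). Both the members and their relatives were listed with results of these arrays known, and the pairs named here other than Tec, Ptpn11 and Wasl were picked after their values were seen, so the split is a description. Probe sets of different genes are set side by side here by their differences, not by their levels.

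**Figure D4:**
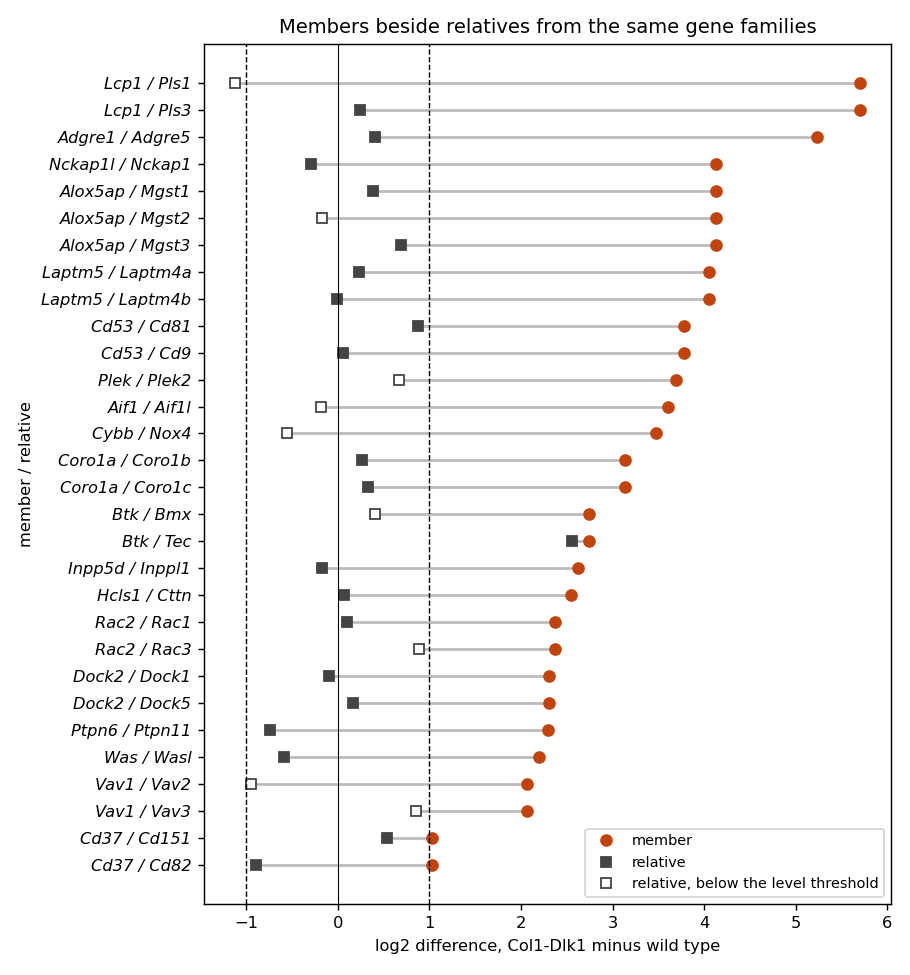
Difference (log2, Col1-Dlk1 minus wild type) of members (orange circles) and of 30 family relatives (grey squares, open where below the level threshold on both arrays), a line joining each pair. Relatives other than Tec at 2.56 lie left of the dashed 2-fold line at 1.

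Partners of the actin members followed the relatives. Of 13 measured genes of the WAVE complex, the Arp2/3 complex and the WASP partners, 0 were higher (background 9.39%), 1 was lower (background 7.11%) and 10 lay within 2-fold. Their median was 0.13. Wasf1, a WAVE protein of brain and other tissues, read 24.0 against 94.9 (-1.60). Wasf2 read 744 against 583 (0.35), Arpc2 read 4242 against 3556 (0.25) and Arpc5 read 1089 against 1525 (-0.48). Nckap1l and Was were higher, while Wasf2, Arpc2 and Arpc5 were within 2-fold.

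Other leukocyte signalling and cytoskeletal genes lay in the direction of the members, with smaller differences. Of 36 measured, 19 were higher (background 9.39%), 0 were lower, 8 were within 2-fold and 9 were below the threshold, with a median of 1.27. The integrin subunit gene Itgb2, the shared beta chain of leukocyte integrins, read 616 against 4.35 (5.36), and Fermt3, the kindlin that activates those integrins, read 187 against 5.10 (3.62). Pik3ap1, a PI3-kinase adaptor, differed by 2.92, Ptpn18 by 2.88, Cytip by 2.36 and Arhgap45 by 2.35.

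Within the SLAM, tetraspanin and MS4A families 3 of 26 measured non-members were higher and 0 lower, and 15 were below the threshold. Over the array 638 of 12393 measured genes were higher, so this small count is a description only. Those higher were Ms4a6b (288 against 16.3, 3.45), Slamf9 (245 against 14.3, 3.34) and Ms4a6c (182 against 11.3, 3.12). The member Ms4a6d differed by 3.07 as a mean of 3 probe sets, whose own differences were 4.21, 4.80 and, in the dim one, 0.20. Other genes of these families were dim on both arrays, among them Ms4a1 and Ms4a2, known from B cells and mast cells, and Slamf1, Slamf6 and Slamf7, known from lymphocytes. These 5 dim genes were chosen for mention after their values were seen. Tetraspanins of many tissues were within 2-fold, such as Cd81 (3078 against 1676, 0.87), Cd82 (47.7 against 98.0, -0.89) and Cd151 (273 against 184, 0.54). Of 8 measured ligands of the member receptors 0 were called, and the galectin genes Lgals1 (-0.26), Lgals3 (0.85) and Lgals9 (0.09) were the 3 that passed the threshold.

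Markers of blood cell types put these values beside the cells that carry such genes. Macrophage markers that are not members were higher in 17 of 17 cases (background 9.39%) with a median of 5.07, and their summed level was 16699 against 275. This list too was chosen with earlier results of these data known. Each of the 17 was between 91.9 and 2073 on the array labelled Col1-Dlk1 and between 1.74 and 43.3 on the array labelled wild type. The summed level of the 37 members was 24762 against 2886. Most of the wild-type sum came from Arhgdib (1221) and Cyba (1189), so these sums do not describe the other members. These markers and the members lie in the same direction, and the part of macrophage RNA in the members' differences was not tested. Cd68 (1422 against 8.13) and C1qa (2012 against 1.74) were among the markers with the largest differences.

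Fewer markers of the other cell types were called. Over the array 638 of 12393 measured genes were called higher and 483 lower, so the small counts below are descriptions only. No neutrophil (of 10), T and NK cell (of 11) or dendritic cell marker (of 8) passed the level threshold on either array. Their summed levels were 117 against 96.7, 92.0 against 123 and 94.1 against 83.8. Among B cell markers 1 of 11 was higher, Blnk, an adaptor that myeloid cells also use (118 against 9.33, 2.67), and among mast cell and basophil markers 1 of 10, Mcpt8 (76.5 against 5.47, 2.41). Platelet markers had 2 of 7 higher, Pf4 (1357 against 15.0, also in the macrophage list) and Ppbp (121 against 20.7). Erythroid markers had 0 of 7 called and endothelial markers 0 of 12. Osteoclast markers had 2 of 9 higher, Acp5 (50.6 against 4.45, 2.00) and Ctsk (631 against 266, 1.21).

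The labelled cell type was checked in the same way. Of 11 measured osteoblast markers, 5 passed the threshold, 1 was lower (Omd, -1.31) and 0 were higher. The type I collagen genes Col1a1 (1772 against 1462, 0.28) and Col1a2 (6261 against 7071, -0.18) and Sparc (7535 against 4818, 0.64) were well above the threshold on both arrays. Tnfrsf11b, the decoy receptor osteoprotegerin, passed it on the array labelled wild type alone, at 29.7 against 62.8 (-0.86). The other 6, Sp7, Alpl, Ibsp, Dmp1, Phex and Pth1r, which act in osteoblast commitment and mineralisation, were below the threshold on both arrays.

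**Figure D5:**
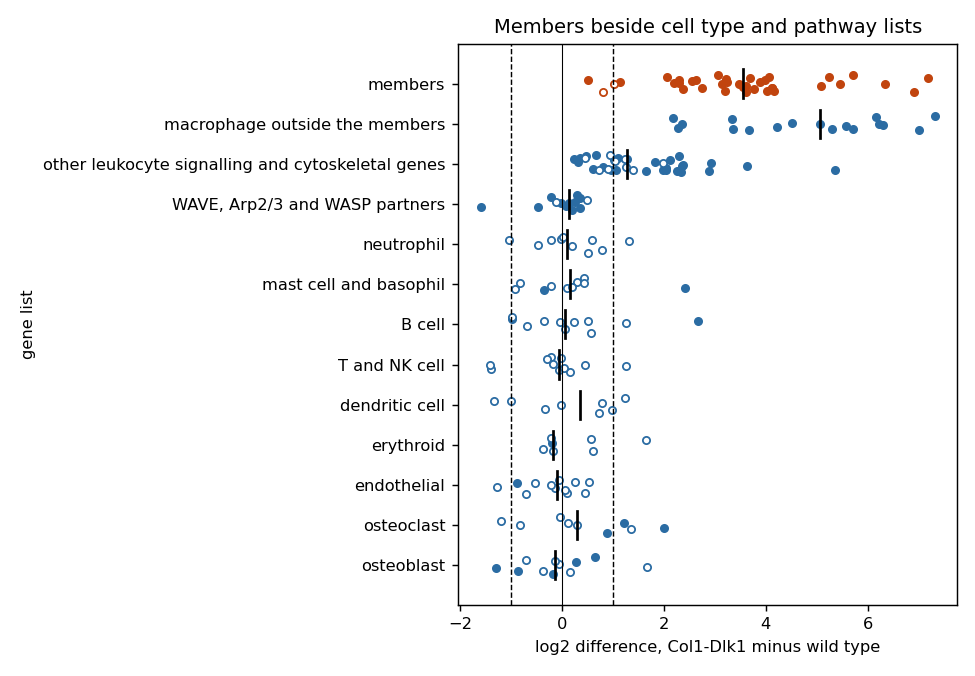
Difference (log2, Col1-Dlk1 minus wild type) of each gene in the member list and in 12 other lists, open where the gene is below the level threshold on both arrays, with a black bar at the list median. The macrophage list (median 5.07) and the members (3.56) lie to the right, and the neutrophil (0.10), T and NK cell (-0.06) and endothelial (-0.10) lists lie around 0.

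The members are spread over 16 chromosomes, and some are neighbours. Lyz1 and Lyz2 on chromosome 10, Aif1 and Lst1 on chromosome 17, and Vav1 and Adgre1 on the same chromosome have 0 protein-coding genes between them in the RefSeq order. Aif1 and Lst1 differed by 3.60 and 3.22, and Cd48 and Cd84, with 2 genes between them, by 4.01 and 3.97. These sizes depend on the pseudocount, and with a pseudocount of 1 they were 5.99 and 3.76 for Aif1 and Lst1. Vav1 and Adgre1 differed by 2.06 and 5.24, and Lcp2 and Dock2, with 1 gene between them, by 0.80 and 2.30.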

How the data were processed

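Total RNA of 1 pool of 3 cultures per genotype was labelled with biotin and hybridised, per the labels' protocols. The authors deposited linear probe-set intensities. The submitters' processing notes name Affymetrix Expression Console 1.1.1. They were made by an algorithm, background correction and scaling not given in the sources used here, without detection calls in the table. Of 22690 probe sets (64 of them controls), 20380 name 1 gene in the platform annotation, and 20351 of these matched a RefSeq gene ID that gave the current symbol; 691 name several genes and were not used. The 25th percentile of all values, 10.96, was added to each intensity before taking log2. Probe sets of a gene were averaged on that scale, and printed gene intensities are these averages turned back. The members and lists were chosen with earlier results of these data known. All members are named; of other lists, at most 6 level-passing genes (at most 4 for cell types) with the largest differences. Cx3cl1, Nox4, Spi1, Col1a2, the dim osteoblast markers and other genes so identified were named after their values were seen. The steps were tested on simulated data, with changes set only in genes above the level threshold on the array labelled wild type. Dim wild-type values, as most members have, were not covered by that test. Alternatives covered scaling, pseudocount, level, fold and probe sets. The number of arrays limits the precision. Computation used numpy 2.4.6, statsmodels 0.14.6 (loess), pandas 2.3.3 and scipy 1.17.1 under Python 3.11.15, and figures used matplotlib 3.10.9.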

Additional observations from a re-analysis of the deposited data

How the results depend on the processing

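No paired analysis was possible because there is 1 array for each genotype, which also leaves none to take out. Under median centring, quantile normalization and loess (span 0.3) the same 34 members were called higher, none was lower, and the median difference lay between 3.50 and 3.56. The count was also 34 with a pseudocount of 1, with a pseudocount at the level threshold and with a 1.5-fold rule, and 33 with a 4-fold rule (without Arhgdib). These compare with 35 level-passing members under the main rule. It was 35 of 37 level-passing with no level filter and 36 of 37 with the brightest probe set. With the probe set of the smallest difference it was 31 of 32 level-passing. Without _s_at and _x_at probe sets it was 30 of 34 measured, of which 31 passed the level. With the level threshold at the 75th percentile (162) it was 22, since only 23 members reach that level. Over all genes, the main rule called 638 higher, median centring 575, quantile normalization 608 and loess 651. A pseudocount of 1 called 793 and a pseudocount at the level threshold 417. The 1.5-fold rule called 1307, the 4-fold rule 240, no level filter 944 and the 75th percentile level 331. The brightest probe set called 733, the smallest difference 548, and leaving out _s_at and _x_at probe sets 631. These are counts and not shares, because the number of genes tested also changed with the rule. It was 6795 under the main rule and 12393 with no level filter. The background count thus moved between rules together with the number tested. The median difference of the members moved to 4.62 with a pseudocount of 1 and to 2.20 with a pseudocount at the level threshold. It was 2.21 with values raised to the threshold. The size of the difference thus rests on how dim wild-type values are treated, and its direction did not turn under any alternative tried. No called member changed sign. The level-threshold floor and the removal of _s_at and _x_at probe sets were chosen after seeing the data. Nearly all wild-type values of the members lie below the level threshold, so their folds are the least certain part.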
